A study of Canis lupus familiaris with 6 samples.

Results

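The expression of RNA sensors and of the genes that carry their signal was examined in RasV12 cells that were cultured alone or co-cultured with normal MDCK cells. The group comprised 9 genes (DDX58, IFIH1, DHX58, TLR3, EIF2AK2, MAVS, TBK1, IRF3 and IRF7). Its members were the probes that carry one of these symbols on the array, 11 probes of 8 genes among 43603 probes in all. IRF7 had no probe under its symbol. The files tie 3 further probes to members, and these are given beside the rest and counted apart. One is described as DDX58, one is described as IRF7, and one is an expressed sequence tag that shares a transcript accession with MAVS.

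MDCK (Madin-Darby canine kidney) cells are an epithelial line of the dog, and RasV12 cells (MDCK-pTR GFP-RasV12) are MDCK cells in which tetracycline turns on GFP-tagged oncogenic Ras. All 6 samples were GFP-positive RasV12 cells sorted after 24 h of tetracycline, 3 from culture alone and 3 from mixed culture with normal MDCK cells, and each was hybridised to 1 single-colour canine array. The treatment text gives 10 normal cells to 1 RasV12 cell, whereas the source label of mixed replicate 2 gives 100 to 1. The titles and the study's methods give RasV12 cells with no other transgene, whereas the extraction text names cells that also carry a β-catenin mutant.

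RIG-I (encoded by DDX58) and MDA5 (IFIH1) are cytoplasmic helicases that bind viral double-stranded RNA and signal through MAVS, an adaptor on mitochondria. LGP2 (DHX58) is a relative that lacks the signalling domains and modulates the other two. TLR3 binds double-stranded RNA in endosomes and signals through TRIF (TICAM1). Both routes activate the kinase TBK1, which phosphorylates the transcription factors IRF3 and IRF7, and these switch on type I interferon genes. PKR (EIF2AK2) binds double-stranded RNA and halts translation by phosphorylating eIF2α (EIF2S1). In textbook accounts interferon itself raises DDX58, IFIH1, DHX58, TLR3, EIF2AK2 and IRF7, whereas MAVS, TBK1 and IRF3 are expressed without it. In epithelial cells this system serves as a first alarm against viruses.

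Each probe is a 60-base oligonucleotide, and the probe sequences show which stretch of each transcript was measured. Those of the genes on which the results turn are printed 5′ to 3′ as the files give them, with positions on canFam3. DDX58 is represented at chr11:49764597-49764656 (minus strand) by probe 1. Probe 2 of DDX58 aligns with a gap between chr11:49787542 and 49788534, and its start lies 22945 bases from that of probe 1. IFIH1 is represented at chr36:7671627-7671686 (minus strand), and DHX58 at chr9:20795197-20795256 (plus strand) by probe 1 and 6424 bases away at chr9:20788773-20788832 by probe 2. The IRF7 probe lies at chr18:25709050-25709109 (minus strand), the EIF2AK2 probe at chr17:29496260-29496319 (minus strand) and the TLR3 probe at chr16:44618804-44618863 (minus strand). The files do not say which exon each position belongs to.
DDX58 probe 1: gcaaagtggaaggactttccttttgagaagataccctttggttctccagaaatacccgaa
DDX58 probe 2: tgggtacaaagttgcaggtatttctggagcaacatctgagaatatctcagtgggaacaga
IFIH1 probe: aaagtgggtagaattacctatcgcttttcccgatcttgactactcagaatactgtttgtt
DHX58 probe 1: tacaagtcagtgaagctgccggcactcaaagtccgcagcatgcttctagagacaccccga
DHX58 probe 2: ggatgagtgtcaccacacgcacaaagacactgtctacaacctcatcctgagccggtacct
TLR3 probe: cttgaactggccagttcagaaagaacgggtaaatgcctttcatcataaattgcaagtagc
EIF2AK2 probe: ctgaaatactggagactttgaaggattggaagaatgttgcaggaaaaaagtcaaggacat
IRF7 probe: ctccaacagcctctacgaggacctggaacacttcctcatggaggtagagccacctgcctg

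The deposited intensities had been corrected for background. Their log2 values were centred here on each array's 75th percentile (592 to 700 units over the 6 arrays), and are called scaled log2 values. The scanner software marked 60.8% to 66.4% of the probes of an array as well above background. Tests were confined to the 26537 probes with this mark on all 3 arrays of either group. All 14 probes were tested, none was saturated, and 13 of them were well above background on all 6 arrays. The exception was DHX58 probe 2, which was well above background on 2 of 3 alone arrays and on 3 of 3 mixed arrays. Since one slide carried the alone arrays and a second slide the mixed arrays, the effects of slide and co-culture cannot be told apart. RNA from sorted populations does not separate more expressing cells from more RNA per cell. Of 8 kidney epithelial markers, 5 were on the array by name and all 5 were tested. Their summed scaled level was 448 to 533 in the alone samples and 479 to 536 in the mixed samples. Of the 5, 2 had a positive and 3 a negative difference, down to -0.37 on the log2 scale for CDH1, and none was called. The summed level of 8 Ras output genes was 113.13 to 116 in the alone samples and 99.5 to 113.05 in the mixed samples. These ranges did not overlap but nearly touched. All sums given here add linear values and rest mostly on the brightest gene of each list. For the Ras output genes that was DUSP6 (mean scaled log2 6.49 alone, 6.30 mixed). Of the 8 genes, 4 had a positive and 4 a negative difference, with 1 called higher (EGR1) and 1 lower (FOSL1). Leukocyte markers (3 of 5 tested) summed to 1.53 to 1.65 alone and 1.67 to 1.78 mixed, and fibroblast markers (2 of 3 tested) to 0.993 to 1.05 alone and 1.13 to 1.22 mixed. Endothelial markers (2 of 3 tested) overlapped, at 4.83 to 7.12 alone and 5.31 to 7.20 mixed. No leukocyte, endothelial or fibroblast marker was called. The part of these shifts in the results that follow was not tested.

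Within the alone group, replicate 1 stood apart for these genes. For all 8 probes of the interferon-inducible members, alone replicate 1 was above both other alone arrays, by 0.28 to 1.92 on the log2 scale over their mean. Over all tested probes the median of that difference was 0.03 and its SD 0.38, and alone replicate 1 was above both others for 46.8% of probes. Among the probes of MAVS, TBK1 and IRF3 the same was seen for 4 of 6. Values without this array are given beside the members' results. Since it was the highest alone array for the inducible members, leaving it out raises their differences by construction.

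At 1 or more probes each, the 5 sensors were higher in RasV12 cells co-cultured with normal cells, whereas no probe of the adaptor MAVS, the kinase TBK1 or IRF3 passed the test. Whether the sensors differed from MAVS, TBK1 and IRF3 as sets was not tested. The MAVS sequence tag had a larger log2 difference (0.55) than the called probes of TLR3 (0.52) and EIF2AK2 (0.46). Of the 11 probes with a member symbol, 5 were called higher in mixed culture and 0 lower at an adjusted p under 0.05 (limma's moderated test, two-sided, Benjamini-Hochberg over all tested probes). Of all 26537 tested probes, 11.2% were called, 5.50% higher and 5.72% lower. The 5 called probes belonged to 5 genes (DDX58, IFIH1, DHX58, TLR3 and EIF2AK2). For 7 of the 11 probes every mixed array was above every alone array, which held for 17.8% of all tested probes, and for 0 of the 11 every mixed array was below, which held for 19.4%. DHX58 probe 2 is one of the 7 and was tested through its mixed arrays, and over the other 10 probes, detected on all 6 arrays, 5 were called and 6 did not overlap. Their median difference was 0.38 on the log2 scale, beside -0.004 over all tested probes. With the 3 further probes counted, 6 of 14 were called higher and 9 of 14 did not overlap.

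**Figure D1:**
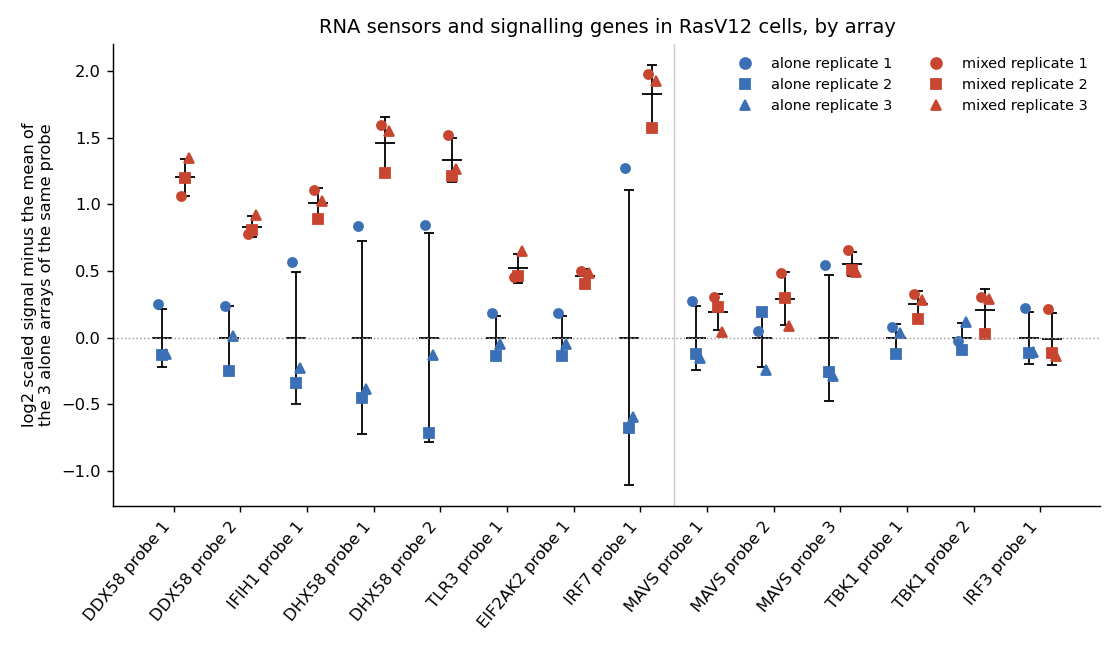
Scaled log2 signal of each probe on each array (y axis, minus the mean of the 3 alone arrays of that probe; x axis, 14 probes). Blue symbols are RasV12 cells alone and red symbols are co-cultured RasV12 cells, symbol shapes are replicates, and bars are the mean and SD of 3 arrays. For the 8 probes left of the line all red symbols lie above all blue ones, and the blue circle of alone replicate 1 lies highest among the blue symbols.

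DDX58, which encodes RIG-I, gave the smallest adjusted p of the members. The intensity of probe 1 was 1197, 1039 and 959 in RasV12 cells alone (replicates 1 to 3) and 2143, 2419 and 2443 in mixed culture. Every mixed array was above every alone array, by at least 0.81 on the scaled log2 scale. DDX58 was 2.30-fold higher in mixed culture (log2 difference 1.20, SE 0.13, n = 3 against 3, limma adjusted p = 0.0131), and 0.644% of tested probes had a larger difference. Probe 2, at the other position in the gene and far dimmer, gave 50.5, 40.8 and 45.1 in the alone arrays and 74.9, 78.7 and 77.7 in the mixed arrays. It was 1.78-fold higher (log2 difference 0.83, SE 0.13, limma adjusted p = 0.0194), so both probes moved the same way without overlap, and their differences lay 0.37 apart on the log2 scale. Without alone replicate 1 the log2 difference of probe 1 was 1.33. With normexp background correction and an offset of 50 units added to each signal, that of the dimmer probe 2 was 0.43 (limma adjusted p = 0.0151).

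IFIH1 and DHX58, the other 2 helicases of the family, were also higher, with a wider spread in the alone group. The IFIH1 probe gave intensities of 1768, 1063 and 1059 alone and 2622, 2323 and 2324 mixed. It was 2.02-fold higher in mixed culture (log2 difference 1.01, SE 0.24, limma adjusted p = 0.0439). The alone arrays spread from 0.60 to 1.51 on the scaled log2 scale and the mixed arrays from 1.84 to 2.05, so the lowest mixed array was above alone replicate 1 by 0.32. The difference was 1.30 without alone replicate 1. For DHX58, which encodes the regulator LGP2, probe 1 gave 107, 49.6 and 47.8 alone and 185, 148 and 168 mixed. The difference was 2.76-fold (log2 1.46, SE 0.34, limma adjusted p = 0.0441), and alone replicate 1 lay between the other alone arrays and the mixed arrays. Without it the difference was 1.88, and with spike-in scaling the call was lost (1.30, limma adjusted p = 0.05004). Probe 2 of DHX58 gave 24.1, 9.25 and 12.8 alone and 39.2, 32.7 and 30.8 mixed, with a log2 difference of 1.33 (SE 0.37, limma adjusted p = 0.0638) that did not pass the test. This probe was close to the detection limit in the alone arrays, where the lowest signal well above background was 9.15 to 12.9, and alone replicate 2 was under it. The size of its difference is therefore not exact and was not used beside that of probe 1. With normexp background correction and an offset of 50 units added to each signal, the log2 differences of probes 1 and 2 were 0.92 and 0.42. Such an offset lowers the log2 differences of dim probes by construction.

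TLR3 and EIF2AK2, whose products recognise double-stranded RNA in endosomes and in the cytoplasm respectively, were higher by smaller folds. The TLR3 probe gave 182, 165 and 161 alone and 224, 232 and 240 mixed, which is a 1.44-fold difference (log2 0.52, SE 0.11, limma adjusted p = 0.0345). The EIF2AK2 probe gave 419, 380 and 372 alone and 532, 512 and 493 mixed, which is a 1.38-fold difference (log2 0.46, SE 0.10, limma adjusted p = 0.0366). For both genes all mixed arrays lay above all alone arrays. The log2 differences were 0.62 and 0.55 without alone replicate 1. With spike-in scaling both calls were lost, at 0.36 for TLR3 (limma adjusted p = 0.102) and 0.30 for EIF2AK2 (limma adjusted p = 0.104). The gap between the nearest arrays of the groups was 0.27 on the log2 scale for TLR3 and 0.22 for EIF2AK2, while the SD of replicates had a median of 0.13 over all tested probes.

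IRF7, the interferon-inducible transcription factor, had the largest difference of the members and did not pass the test. Its probe gave 7051, 2050 and 2006 in RasV12 cells alone and 11695, 9095 and 10585 in mixed culture. Alone replicate 1 was thus far brighter than the other alone arrays and below all mixed arrays. The log2 difference was 1.83 (3.55-fold, SE 0.51, 95% interval 0.60 to 3.05, limma adjusted p = 0.0662), and 0.256% of tested probes had a larger one. With the replicate number as a block the adjusted p was 0.0499, and without alone replicate 1 the difference was 2.47 (limma adjusted p = 0.0035). With any other array left out the adjusted p was 0.15 to 0.194, and with quantile normalization, spike-in scaling and the methods' t-test it was 0.0587, 0.0667 and 0.179. In all, 3 of 14 alternatives called IRF7.

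**Figure D2:**
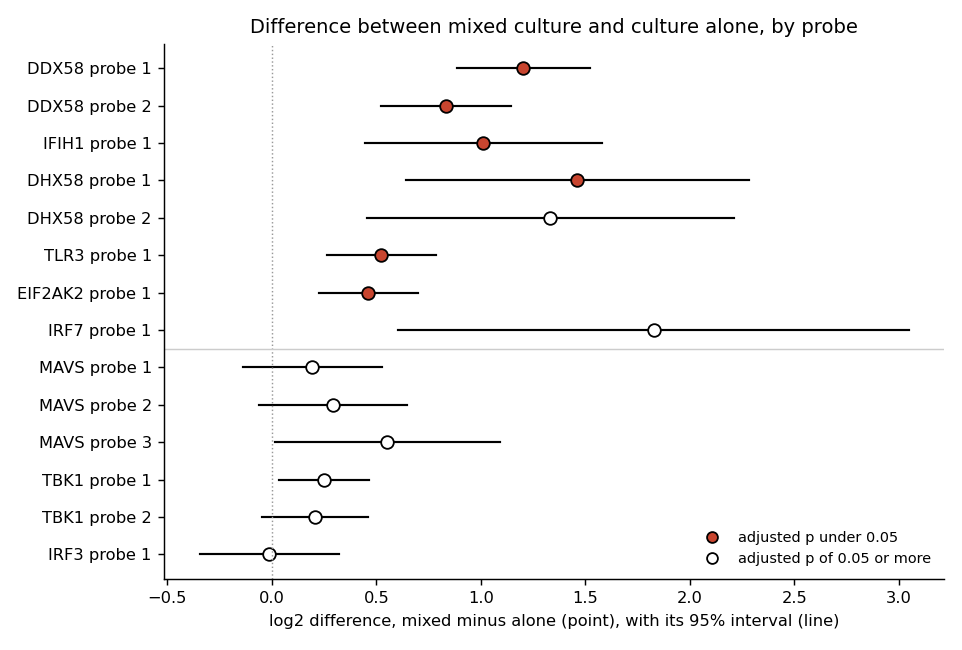
Log2 difference, mixed minus alone (x axis), for each of 14 probes (y axis), as points with 95% intervals from limma. Filled points passed an adjusted p of 0.05. Of the 8 probes above the line 6 are filled, between 0.46 and 1.46, and none of the 6 below it is, with IRF3 at -0.01.

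MAVS, the adaptor of RIG-I and MDA5, did not pass the test at any of 3 probes. MAVS probe 1 (chr24:17512966-17513025, minus strand) gave 193, 166 and 149 alone and 201, 196 and 157 mixed, with a log2 difference of 0.19 (95% interval -0.14 to 0.53, limma adjusted p = 0.386). MAVS probe 2 (chr24:17520384-17520443) was dimmer and had scaled log2 values of -3.63, -3.48 and -3.92 alone and -3.19, -3.38 and -3.59 mixed, with a difference of 0.29 (limma adjusted p = 0.228). The groups overlapped at both. The expressed sequence tag, at chr24:17511931-17511990 and 1035 bases from probe 1, had a higher alone replicate 1, with intensities of 5508, 3559 and 3225 alone and 6072, 5642 and 5067 mixed. Its log2 difference was 0.55 (limma adjusted p = 0.151). Without alone replicate 1 it was 0.83 (limma adjusted p = 0.00505), whereas probes 1 and 2 did not pass without that array (0.33 and 0.32).

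TBK1, the kinase that both sensor routes reach, differed little. TBK1 probe 1 (chr10:7208649-7208708, plus strand) gave 2083, 2046 and 2106 alone and 2519, 2279 and 2290 mixed. All mixed arrays were above all alone arrays by a margin of 0.06 on the scaled log2 scale, and the log2 difference of 0.25 (95% interval 0.04 to 0.47) did not pass the test (limma adjusted p = 0.116). TBK1 probe 2, in 2 blocks between chr10:7205593 and 7205870, gave 191, 205 and 220 alone and 244, 207 and 227 mixed, with overlap and a log2 difference of 0.21 (limma adjusted p = 0.233). The differences were 0.29 and 0.19 without alone replicate 1.

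IRF3, the constitutive counterpart of IRF7, had nearly equal means in the groups. Its probe, aligned with a gap between chr1:106878311 and 106878850 on the plus strand, gave 14969, 13354 and 12367 alone and 15139, 12396 and 11163 mixed. Replicate 1 was the highest array in each group. The log2 difference was -0.01 with a 95% interval of -0.34 to 0.32 (limma adjusted p = 0.963). Its sign changed with the scaling and with the arrays kept, between -0.17 and 0.10.

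Ratios within an array do not depend on the array's scaling, and each sensor or factor was therefore set against its partner in the pathway. The changes of the log2 ratio from culture alone to mixed culture are given, since the level of one probe cannot be compared with that of another. Relative to the mean of the alone arrays, the ratio of DDX58 to MAVS probe 1 was -0.02, -0.01 and 0.03 in the alone arrays and 0.76, 0.97 and 1.31 in the mixed arrays. The alone arrays lay closer together in this ratio (SD 0.03) than the mixed arrays (SD 0.28), and alone replicate 1 did not stand apart in it. This depended on the MAVS probe. With the MAVS sequence tag as the partner, the DDX58 ratio was -0.29, 0.13 and 0.16 alone and 0.41, 0.69 and 0.86 mixed. Alone replicate 1 there lay below the other alone arrays. The IRF7 to IRF3 ratio was 1.05, -0.57 and -0.49 alone and 1.77, 1.69 and 2.06 mixed, so here alone replicate 1 remained apart and below the mixed arrays. The mean ratio was higher in mixed culture by 1.01 for DDX58 to MAVS, 0.82 for IFIH1 to MAVS, 1.27 for DHX58 to MAVS, 0.88 for TLR3 to TICAM1, 1.84 for IRF7 to IRF3 and 0.78 for EIF2AK2 to EIF2S1. MAVS here is probe 1, the brightest probe with that symbol. The sequence tag was brighter (mean scaled log2 2.61 in the alone arrays, beside -1.96 for probe 1) but lacks the symbol. IRF7, with no probe under its symbol, is given at its further probe. Against the sequence tag at MAVS the same differences were 0.65 for DDX58, 0.46 for IFIH1 and 0.91 for DHX58, again without overlap. The IRF7 to IRF3 difference was 2.37 without alone replicate 1. In each of the 6 ratios the 3 mixed arrays were above the 3 alone arrays. Each numerator was already without overlap on its own, so this partly restates the results of the members. The share of other probe pairs for which the same holds was not computed. The exact two-sided permutation p was 0.1 for each (0.1 after Benjamini-Hochberg adjustment over 6), which is the smallest that 3 against 3 arrays allow, so this test cannot reach 0.05. For TLR3 and EIF2AK2 the partner contributed to the change, since TICAM1 had a log2 difference of -0.35 (limma adjusted p = 0.0673, no overlap) and EIF2S1 fell by 0.31 on the log2 scale (limma adjusted p = 0.0466). The other tested probes of EIF2S1 gave -0.29 and -0.49, and neither passed.

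**Figure D3:**
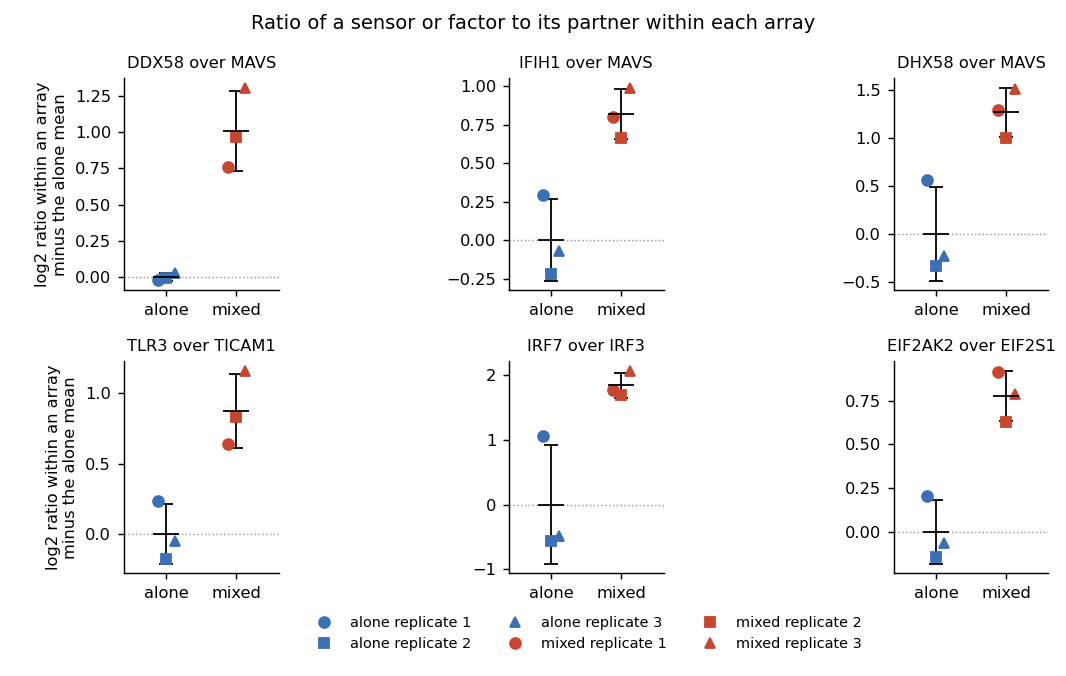
Log2 ratio of each sensor or factor to its partner within an array (y axis, minus the mean of the 3 alone arrays), for RasV12 cells alone and in mixed culture. Symbols are arrays, and bars are the mean and SD of 3 arrays. In all 6 panels the 3 mixed arrays lie above the 3 alone arrays, and the alone arrays are closest together for DDX58 over MAVS.

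The other genes of the pathway were called about as often as probes at large. Of 61 further genes of RNA sensing and its outputs, 48 were on the array by symbol and 44 were tested at their brightest tested probe. Of these 44, 2 were called higher, 3 were called lower and 39 did not pass, and their median log2 difference was -0.04. The 5 called genes are 11.4% of those tested, beside 11.2% of all probes. Among 13 tested cofactors of the RIG-I-like receptors, ZC3HAV1 (an antiviral zinc-finger protein) rose 1.32-fold (log2 0.40, limma adjusted p = 0.0313), and TRIM25, the ubiquitin ligase that activates RIG-I, fell by 0.33 on the log2 scale (limma adjusted p = 0.0493). Among 6 genes of the endosomal receptor arm, UNC93B1, which carries TLR3 to endosomes, rose 1.65-fold (log2 0.72, limma adjusted p = 0.0254). Its 2 other probes gave 0.07 and 0.66, of which 1 passed. Among 9 genes of the kinase complex, the adaptor TRADD fell by 0.38 (limma adjusted p = 0.037) and 8 did not pass at their brightest probe. CHUK, a kinase of the NF-κB pathway, was one of these (-0.46, limma adjusted p = 0.0696), and 1 of its 3 other probes was called (they gave -0.15, -0.25 and -0.51). With the replicate number as a block, the 3 genes called lower no longer passed and MYD88, an adaptor of the Toll-like receptors, was called higher (0.40, limma adjusted p = 0.0492).

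The oligoadenylate synthetases and their relative (OAS1, OAS2, OAS3 and OASL), which are interferon-induced proteins of RNA sensing, did not pass, with log2 differences of 0.33, 0.70, -0.05 and 0.20. OAS2 did not overlap between the groups (limma adjusted p = 0.11). Without alone replicate 1, OAS1 (0.61, limma adjusted p = 0.0388) and OAS2 (0.98, limma adjusted p = 0.00805) were called higher. That array was the highest alone array for both genes, so leaving it out raises their differences by construction. Its scaled log2 value was 3.27 for OAS1 (2.38 and 2.50 in the other alone arrays) and 3.52 for OAS2 (2.54 and 2.80). With all 6 arrays the groups overlapped for OAS1. In that setting 6 of 45 tested pathway genes were called higher and 7 lower. Of all tested probes 26.4% were called there, 12.6% of them all as higher, so the pathway genes were again called about as often as probes at large. None of the 3 tested genes of DNA sensing passed, and of 7 genes around PKR and eIF2 only EIF2S1 did, at its brightest probe but not at its other tested probes.

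The outputs of the pathway were dim or did not pass the test. IFNB1, the interferon that IRF3 and IRF7 switch on, was well above background on 0 of 6 arrays, with intensities of 2.59 to 3.83 alone and 3.23 to 3.87 mixed. The 3 probes of CXCL10, a chemokine induced by interferon, were well above background on at most 3 arrays and were not tested with all 6 arrays. Without alone replicate 1, 1 of these probes passed the detection rule and was called lower (-1.02, limma adjusted p = 0.0376). It was well above background on 2 alone arrays and 1 mixed array, and so passed only through the alone group. Passing that way favours a lower value in mixed culture, and no conclusion is drawn from this call. The probe was dim, at 2.72 to 23.8 alone and 7.79 to 13.2 mixed over all 6 arrays. CCL5 had a log2 difference of -0.16, and 1 of 2 IFNA7 probes was tested and had -0.17, neither past the test. The tested IFNA7 probe gave 946 to 2097 alone and 1050 to 1302 mixed. The other gave 2.45 to 3.51 alone and 3.13 to 4.29 mixed and was well above background on 0 of 6 arrays. The probes thus disagree on the level of IFNA7, and which of them measures it was not tested. DDX60, a helicase described as a RIG-I cofactor, was well above background on 1 alone and 2 mixed arrays (8.11 to 19.5 alone, 16.7 to 27.7 mixed) and was not tested.

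**Figure D4:**
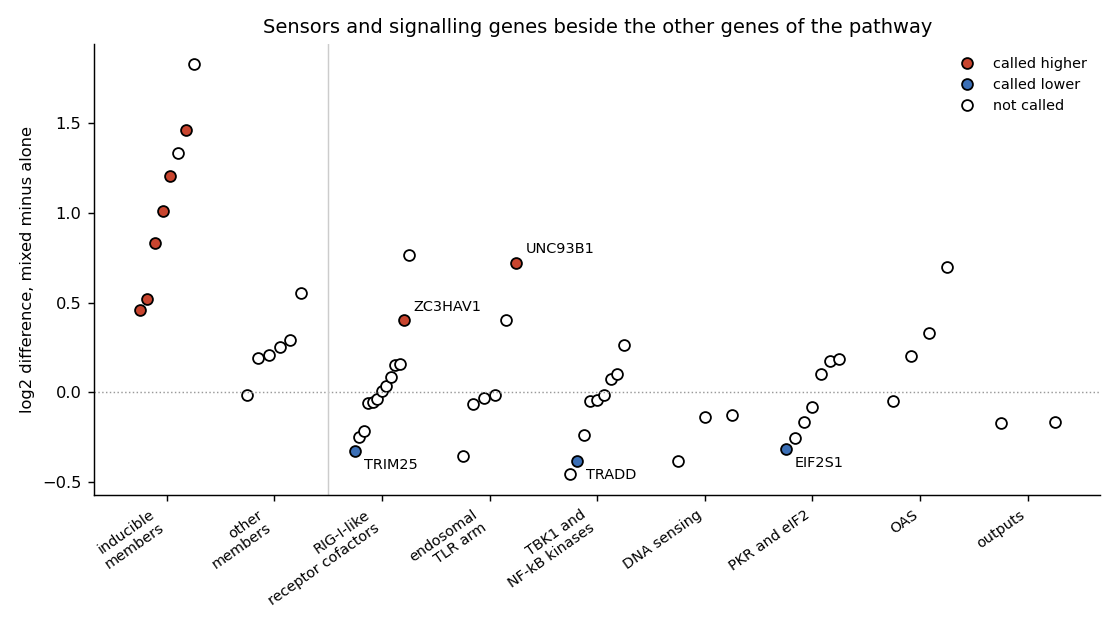
Log2 difference, mixed minus alone (y axis), for the 14 member probes and, at 1 probe a gene, the 44 tested genes of the pathway by role (x axis). Red points were called higher, blue points lower and white points were not called. The 8 points of the inducible members, called or not, lie from 0.46 to 1.83. All 44 pathway genes lie from -0.46 to 0.77, and the named ones that passed from -0.38 to 0.72.

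The genes whose pattern over the 6 arrays was most like that of DDX58 probe 1 were sought among 15744 probes with a gene symbol, by the Euclidean distance between log2 values centred on each probe's mean. The nearest was HERC5, which encodes an interferon-induced ligase for the ubiquitin-like protein ISG15, at a distance of 0.14 and with a log2 difference of 1.21. STX19, a syntaxin, followed at 0.18 (log2 difference 1.15). CPPED1, SCFD2 and MCPH1 lay at 0.28, 0.29 and 0.31, with log2 differences of 1.11, 1.02 and 1.32. Since these genes were picked for their likeness, their differences are a description.

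The sensors and IRF7 kept the direction of their differences whichever array was left out, whereas the calls depended on single arrays. With each array left out in turn, DDX58 probe 1 ranged from 1.13 to 1.33, IFIH1 from 0.84 to 1.30, DHX58 probe 1 from 1.24 to 1.88, TLR3 from 0.45 to 0.62, EIF2AK2 from 0.39 to 0.55 and IRF7 from 1.49 to 2.47. Without alone replicate 1, the highest alone array for the 8 probes of the inducible members, their differences were 0.55 to 2.47 and all 8 were called, DHX58 probe 2 among them. In that setting 12.6% of all tested probes were called higher. Without mixed replicate 1, 1 of the 11 probes with a member symbol passed, DDX58 probe 1. Without alone replicate 2, alone replicate 3, mixed replicate 2 or mixed replicate 3, none passed, and 24, 7, 9 and 12 of all tested probes did. Without mixed replicate 2, whose label gives another mixing ratio, the difference was 1.21 for DDX58 probe 1 (limma adjusted p = 0.0728) and 0.55 for TLR3 (limma adjusted p = 0.105).

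**Figure D5:**
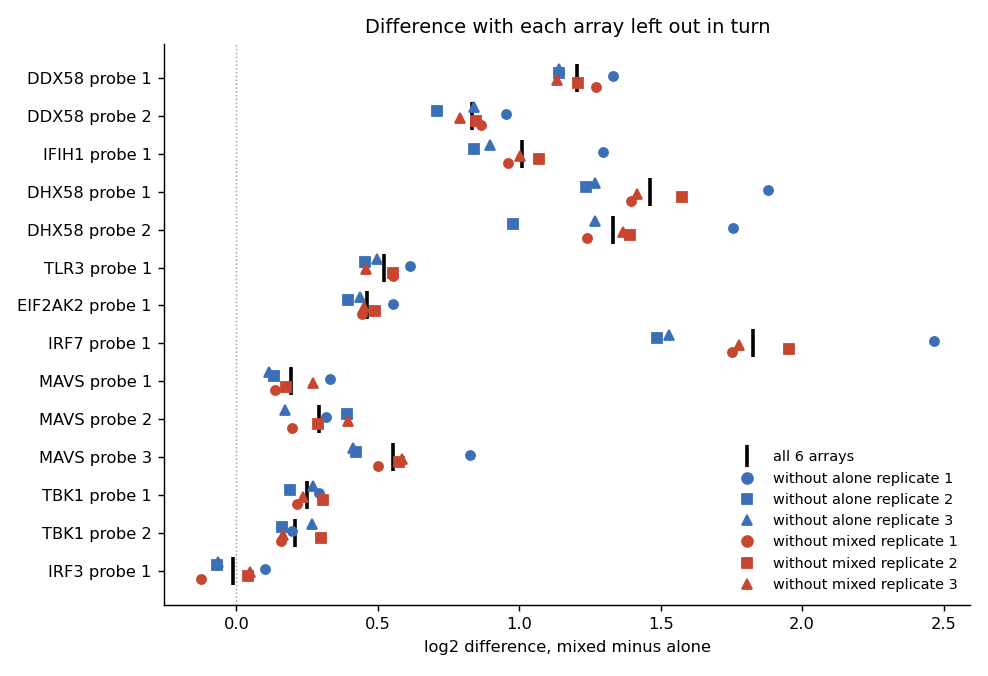
Log2 difference, mixed minus alone (x axis), for 14 probes (y axis), with all 6 arrays (black bar) and with each array left out in turn (symbols; blue where an alone array and red where a mixed array was left out). The blue circle, without alone replicate 1, lies farthest right for all 8 probes of the inducible members, up to 2.47 for IRF7, and IRF3 lies on both sides of 0.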

How the data were processed

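RNA of GFP-positive RasV12 cells, sorted after culture alone (3 samples) or in mixed culture (3 samples), was hybridised to single-colour Agilent canine arrays, 1 array a sample. The authors deposited the scanner software's intensity for each spot, corrected for background (Agilent Feature Extraction, canFam3 positions per the file headers), and a table of log2 values, which here equalled the log2 intensity minus a constant within 0.0011 of each array's 75th percentile.

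After removal of control spots and outlier spots, the spots of a probe were averaged and log2 intensities were taken minus the 75th percentile of each array. The groups were compared with lmFit and eBayes (limma 3.58.1, R 4.3.3) over 26537 probes (two-sided), and adjusted p-values (Benjamini-Hochberg) under 0.05 were called. The procedure was tested on simulated data. Tables and plots were made with Python 3.11.15, pandas 2.3.3, numpy 2.4.6 and matplotlib 3.10.9.

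The members and lists were chosen with earlier results of these data known. Named are all member probes, pathway genes called at their probe with the highest mean, the partners TICAM1 and EIF2S1, the outputs by detection, and the 5 genes nearest to DDX58. OAS genes, CHUK, MYD88, DDX60, EGR1 and FOSL1 were named after their values were seen. Nothing in the labels says that samples of a group came from separate cultures, so p-values measure the spread between these samples, which may be technical. After removing group means, same-numbered arrays correlated across probes at 0.35, 0.16 and 0.30. Since each exceeded 0.1, the numbers were taken as a possible pairing, used only in the fit with the replicate number as a block. The main fit and the permutation test were unpaired. Alone replicate 2 correlated more with mixed replicate 3, at 0.24, than with mixed replicate 2, and the number is also the position on the slide. These correlations therefore do not establish a pairing. Promoter motifs were not analysed here, and 1 gene of the pathway lists is not reported here.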

Additional observations from a re-analysis of the deposited data

How the results depend on the processing

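The number of arrays limits the precision, and the calls depended on the setting more than the differences did. All member probes except IRF3 kept their direction under every alternative run. The IRF3 difference changed sign under quantile normalization (0.023), and it ranged from -0.13 to 0.10 with each array left out in turn. In all, 2978 probes were called, beside 995 with spike-in scaling, 12 with no filter on dim probes, 826 with the methods' t-test and Benjamini-Hochberg adjustment, 7316 with that test unadjusted, and 7 to 7335 with each array left out in turn. Of the 11 probes with a member symbol 5 were called higher, beside 2 with spike-in scaling, 0 with no filter, 1 with the methods' t-test adjusted, 7 with it unadjusted, and 0 to 6 with an array left out. Of the pathway genes 2 were called higher, beside 1 with spike-in scaling, 0 with no filter, 0 with the methods' t-test adjusted, 4 unadjusted, and 0 to 6 with an array left out. The 3 called lower became 0 with spike-in scaling, 0 with no filter, 0 with the methods' t-test adjusted, 8 unadjusted, 0 with the replicate block, and 0 to 7 with an array left out. Without the filter 43603 probes were tested, the added ones short of the detection rule. The cause of the other changes was not tested. No member probe was called lower in any setting (limma; 0 of 11 at an unadjusted p under 0.05). Spike-in scaling, on 7 of 10 controls, moved the median of all probes by -0.16. There DDX58 probe 1 (1.04) and IFIH1 (0.85) kept their calls, and DHX58 probe 1, TLR3 and EIF2AK2 lost them. The replicate block also called IRF7 and DHX58 probe 2 (limma adjusted p = 0.044), the latter with 1 alone array not well above background. Counting the 3 further probes and the ratios to the MAVS sequence tag were chosen after seeing the data. The plan put each ratio at the tested probe with the highest mean of the gene. For MAVS this was kept to probes with its symbol, which gave larger changes than the brighter sequence tag. The planned slide block was not run, because slide and group coincide.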
